A study of Homo sapiens with 6 samples.

Results

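Transcripts of 5 enzymes of the pentose phosphate pathway and of cytosolic NADPH production, PGD, TKT, TALDO1, ME1 and IDH1, were followed in MDA-MB-231 cells with and without ionising radiation. They were chosen by gene name, as 5 of the 58735 genes in the table of expression values, and all 5 were among the 12128 genes that were tested. MDA-MB-231 is an established human basal-like breast cancer cell line. All 6 libraries came from shSCR cells, which carry a non-targeting short hairpin RNA as control. The sample descriptions give their genotype as WT and their name as SCR. RNA was taken 24 h after 0 Gy (3 libraries) or 10 Gy from a caesium source (3 libraries). Whether the 3 libraries of a dose were separate cultures was not stated, so the p-values measure the spread between these samples, which may be technical. The 10 Gy cells are thus a single dose and time in a single shSCR line.

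The pentose phosphate pathway branches from glycolysis at glucose 6-phosphate. Its oxidative branch ends with PGD, 6-phosphogluconate dehydrogenase, which makes NADPH and ribulose 5-phosphate, and its reversible branch, through TKT (transketolase) and TALDO1 (transaldolase), exchanges sugar phosphates with glycolysis. ME1, the cytosolic malic enzyme, and IDH1, the cytosolic and peroxisomal isocitrate dehydrogenase, make NADPH outside that pathway. NADPH keeps glutathione and thioredoxin reduced and is spent in fatty acid and sterol synthesis. PGD, TKT, TALDO1 and ME1 are textbook targets of NRF2, the transcription factor that binds antioxidant response elements.

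Sequences upstream of a RefSeq start of each of the 5 genes are shown. The reasons are that 4 of these genes fell after 10 Gy and that the antioxidant response element is the motif usually named for this group. Each is given 5′ to 3′ on the gene's strand, from the RefSeq promoter windows of GRCh38.p14, which run from 250 bases before to 50 bases after a start. The part of the window outside annotated exons is printed. For PGD and IDH1 that part lies within the annotated bounds of the gene, before a start inside it. Capitals mark matches to the antioxidant response element core TGACNNNGC, the AP-1 site TGANTCA, the CCAAT box CCAAT and the GC box GGGCGG, each searched on both strands. The stretches are ME1 at chr6:83431072-83431301 on the minus strand, PGD at chr1:10398814-10399043 on the plus strand, IDH1 at chr2:208255134-208255246 on the minus strand, TKT at chr3:53256053-53256272 on the minus strand and TALDO1 at chr11:747214-747328 on the plus strand.
ME1: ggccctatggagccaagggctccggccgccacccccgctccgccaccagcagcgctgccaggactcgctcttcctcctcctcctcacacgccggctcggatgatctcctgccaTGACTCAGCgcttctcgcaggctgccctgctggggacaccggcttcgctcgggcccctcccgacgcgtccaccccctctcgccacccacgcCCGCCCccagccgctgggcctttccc
PGD: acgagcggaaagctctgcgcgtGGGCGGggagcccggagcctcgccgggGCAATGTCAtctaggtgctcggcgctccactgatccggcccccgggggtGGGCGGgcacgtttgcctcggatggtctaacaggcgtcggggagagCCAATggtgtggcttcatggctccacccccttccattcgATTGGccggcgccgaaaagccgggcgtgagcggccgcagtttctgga
IDH1: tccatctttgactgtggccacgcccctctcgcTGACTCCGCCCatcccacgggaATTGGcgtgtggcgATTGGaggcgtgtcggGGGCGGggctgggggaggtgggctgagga
TKT: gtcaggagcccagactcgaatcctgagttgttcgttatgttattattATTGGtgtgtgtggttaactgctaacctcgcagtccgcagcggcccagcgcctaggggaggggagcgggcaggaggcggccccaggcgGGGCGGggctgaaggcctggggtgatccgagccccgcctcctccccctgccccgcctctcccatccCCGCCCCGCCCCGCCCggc
TALDO1: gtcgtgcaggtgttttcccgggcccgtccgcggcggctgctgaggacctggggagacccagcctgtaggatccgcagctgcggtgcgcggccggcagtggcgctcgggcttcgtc

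The antioxidant response element core was found in 13.3% of all 35116 promoter windows. In ME1 it began at base -137 from the start, where it overlapped an AP-1 site, a motif held by 7.71% of windows. A further match in ME1 lay on the other strand from base 12 after the start. PGD held a match on the other strand at -201, and IDH1 held a match at -143, which overlapped a GC box. The windows of TKT and TALDO1 held no match. The GC box, present in 45% of windows, occurred in the whole window 5 times in TKT, 3 times in IDH1, in 2 places each in PGD and TALDO1, and once in ME1. The CCAAT box, present in 34.6% of windows, occurred in PGD, IDH1, TKT and TALDO1 and not in ME1. Some matches lie in the part of the window that is not printed, a GC box of IDH1 at -229 and of TKT at -16, and all those of TALDO1, whose GC boxes are at -130 and -60 and CCAAT box at -68. The E-box CACGTG, present in 7.26% of windows, was not found in any member's window. The 5 windows shown were richer in G and C, at 64.7% (IDH1) to 75.0% (TALDO1), than the median window at 58.7%. IDH1 has a second window, with GC boxes and none of the other motifs. These are matches of letters only, and binding was not measured here.

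Expression was given as FPKM, the fragments of a gene scaled to its length in kilobases and to the depth of the library. Between 15643641 and 28861781 reads per library fell on genes. The depth used for that scaling was set by the authors, and relative to these reads it was 0.973 to 0.991 at 0 Gy and 1.03 to 1.04 at 10 Gy, so it differed between the doses. The line's markers VIM, AXL, CAV1, CD44 and EGFR ranged from 26.4 to 312 FPKM, SPARC, also on the marker list, reached only 0.296 FPKM, and markers of luminal, leukocyte and liver cells were at or near 0. PECAM1, an endothelial marker, rose from 1.22 ± 0.0085 to 1.94 ± 0.048 FPKM after 10 Gy (SD, n = 3), a log2 change of 0.40 (limma, adjusted p = 0.0027). Of the 5 line markers tested 4 were called lower at 10 Gy, AXL (-0.49), CAV1 (-0.26), VIM (-0.26) and CD44 (-0.11), and EGFR was not called. The part of either in the changes of the enzymes was not tested.

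Among the 5 enzymes, TALDO1, PGD, TKT and ME1 fell after 10 Gy, and the lower value of IDH1 did not pass the test. In the fit over all genes (limma on log2(FPKM + 1), Benjamini-Hochberg adjusted p under 0.05), 35.6% of tested genes were called, 11.9% higher and 23.7% lower. That split depends on the scaling of the libraries, with 1443 higher and 2874 lower as deposited and 3113 (25.7% of tested genes) and 1066 (8.79%) in TPM. The 4 members called lower are read against that 23.7%. That share was higher among well-expressed genes, with 2734 of 7262 called lower at a filter of 5 FPKM, which all members pass. The 500 genes closest in level had median changes of -0.13 for PGD and TKT, -0.15 for TALDO1, -0.07 for ME1 and -0.05 for IDH1. Near PGD, and likewise near ME1, 22.0% of these genes had a lower change. At a change of at least 1.3-fold, TALDO1 was the only member called, at -0.386 beside a threshold of 0.379 in log2 size. It fell short of that size in TPM (-0.261) and under further alternatives given below. At that size 5.77% of tested genes were called, and 2.95% were called lower. With the deposited scaling every value at 10 Gy lay below every value at 0 Gy for all 5 members, as for 32.8% of tested genes. In TPM this held for TALDO1, PGD and TKT, while ME1 overlapped and every IDH1 value was higher at 10 Gy. The median change was -0.20 on the log2 scale over the 5 members and -0.04 over all tested genes. The summed FPKM of the 5 genes was 227 ± 7.42 at 0 Gy and 186 ± 2.97 at 10 Gy (SD, n = 3), a ratio of 0.819. Part of that fall is shared by the whole data set, whose summed FPKM averaged 272981 at 0 Gy and 249745 at 10 Gy.

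**Figure D1:**
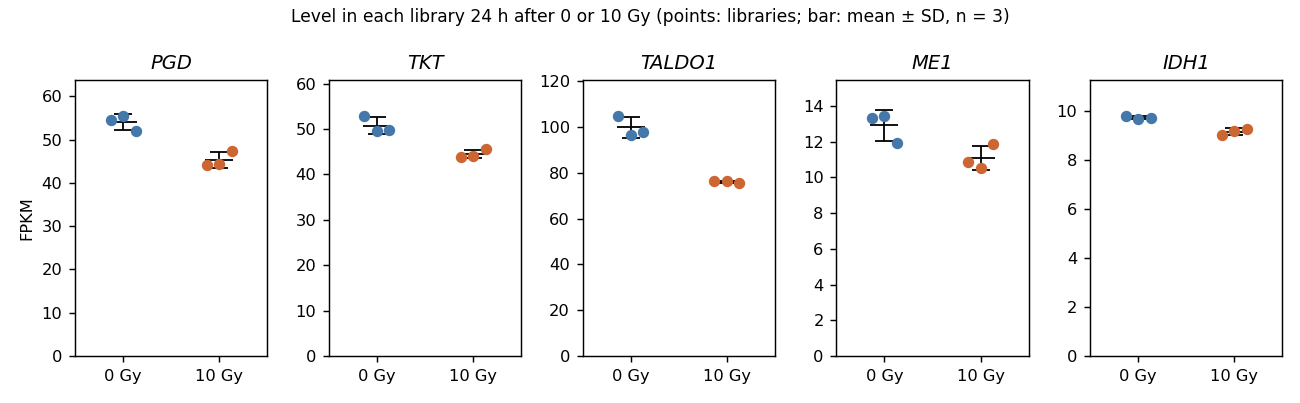
FPKM of PGD, TKT, TALDO1, ME1 and IDH1 in each of the 3 libraries at 0 Gy and the 3 at 10 Gy, with bars at the mean and error bars of 1 SD. TALDO1 shows the widest gap between the doses, 20.2 FPKM, and ME1 the narrowest, 0.0641 FPKM.

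PGD, the enzyme that closes the oxidative branch and releases NADPH there, fell by 16.1%. It was at 54.6, 55.5 and 52.0 FPKM in the 0 Gy libraries and at 44.2, 44.3 and 47.4 FPKM in the 10 Gy libraries. The lowest 0 Gy library stood 4.62 FPKM above the highest 10 Gy library. The means were 54.0 ± 1.82 and 45.3 ± 1.78 FPKM (SD, n = 3), a log2 change of -0.25 with a standard error of 0.040 and a 95% interval of -0.34 to -0.15 (limma, adjusted p = 0.0042). These values rest on 2400 to 3923 reads per library, whose counting error averaged 1.81% of the value at 0 Gy. The gene lies at chr1:10398592-10420144 (GRCh38) on the plus strand, and its principal transcript has 13 exons and encodes 483 residues. The pseudogene PGDP1 was listed at 0 in all 6 libraries.

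TALDO1, which moves 3-carbon units between sugar phosphates, had the largest change of the 5. Its 0 Gy libraries were at 105.0, 96.6 and 98.1 FPKM and its 10 Gy libraries at 76.4, 76.5 and 75.6 FPKM. The irradiated libraries were close to each other and well below the controls. The means were 99.9 ± 4.46 and 76.2 ± 0.486 FPKM (SD, n = 3), a fall of 23.8%. The log2 change was -0.39 with a standard error of 0.038 and a 95% interval of -0.47 to -0.30 (limma, adjusted p = 0.00081), on 4196 to 6867 reads per library. Of all tested genes 3.08% had a lower change, as had 7.0% of the 500 genes closest to TALDO1 in level. The gene lies at chr11:747329-765024 on the plus strand, with 8 exons and 337 residues.

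TKT, the other enzyme of the reversible branch, carries 2-carbon units with thiamine diphosphate as cofactor. It was at 52.9, 49.7 and 49.7 FPKM at 0 Gy and at 43.9, 44.1 and 45.6 FPKM at 10 Gy, so the doses did not overlap. Its means of 50.8 ± 1.87 and 44.6 ± 0.921 FPKM (SD, n = 3) gave a log2 change of -0.18 with a standard error of 0.036 and a 95% interval of -0.27 to -0.10 (limma, adjusted p = 0.0082). TKT had the most reads of the 5, 7261 to 12482 per library, and its counting error averaged 1.04% at 0 Gy. Among the 500 genes closest to it in level, 36.4% had a lower change and the median change was -0.13. The gene lies at chr3:53224707-53256052 on the minus strand, and 1 of its principal transcripts has 14 exons and encodes 623 residues.

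ME1, which turns malate into pyruvate with the release of NADPH, was called lower with the least margin. It was at 13.4, 13.5 and 11.9 FPKM at 0 Gy and at 10.9, 10.5 and 11.9 FPKM at 10 Gy. The third library of each dose met near 11.9 FPKM, only 0.0641 FPKM apart. The means were 12.9 ± 0.860 and 11.1 ± 0.677 FPKM (SD, n = 3), a log2 change of -0.20 with a standard error of 0.059 and a 95% interval of -0.34 to -0.06 (limma, adjusted p = 0.036). The call was lost when either the first or the second library of either dose was left out, with log2 changes between -0.19 and -0.17. It was kept without the third library of either dose, at -0.25 each time. ME1 had 649 to 1097 reads per library, a counting error averaging 3.47% at 0 Gy, beside a coefficient of variation between those libraries of 6.66%. The gene lies at chr6:83210389-83431071 on the minus strand, with 14 exons and 572 residues.

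IDH1, which makes NADPH from isocitrate, changed the least. Its values were 9.79, 9.66 and 9.70 FPKM at 0 Gy and 9.003, 9.18 and 9.25 FPKM at 10 Gy, with 701 to 1271 reads per library. The doses were 0.406 FPKM apart at the nearest libraries. The means of 9.72 ± 0.068 and 9.15 ± 0.129 FPKM (SD, n = 3) differed by 5.89%. The log2 change of -0.08, with a 95% interval of -0.15 to -0.0045, missed the threshold (limma, adjusted p = 0.091). The 0 Gy libraries varied by 0.700%, less than their average counting error of 3.38%, so the nearness of these 3 values is itself below what this depth resolves. The gene lies at chr2:208236227-208266074 on the minus strand, and 1 of its principal transcripts has 10 exons and encodes 414 residues. It shares 94 exon bases with IDH1-AS1 on the other strand, which reached at most 1.42 FPKM, and whether the libraries kept strand was not stated.

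**Figure D2:**
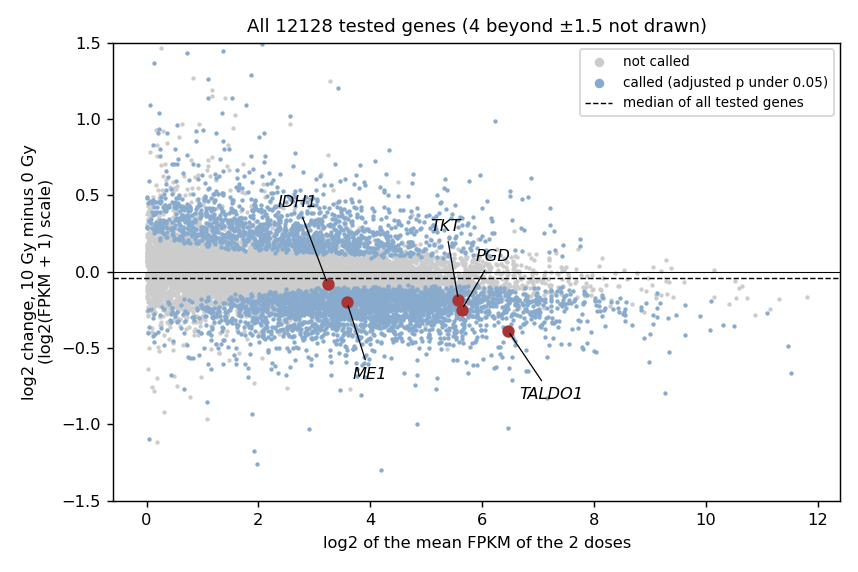
Log2 change of FPKM + 1 from 0 to 10 Gy against the log2 of the mean FPKM of both doses for the 12128 tested genes, with the 5 members marked. The members lie between -0.39 (TALDO1) and -0.08 (IDH1), and 4 genes beyond a change of 1.5 are not drawn.

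The order of the levels was TALDO1, PGD, TKT, ME1 and IDH1 at both doses. PGD and TKT overlapped in FPKM at 0 Gy and at 10 Gy, so their order is not resolved, and the other neighbours were apart. FPKM divides by all exon bases of a gene, which for TKT are 3.16 times the length of the principal transcript and for ME1 equal to it. Divided by the principal transcript instead, the 0 Gy means would be 223 for TALDO1, 160 for TKT, 85.0 for PGD, 18.8 for IDH1 and 12.9 for ME1, which places TKT above PGD and IDH1 above ME1. This choice of length does not touch a comparison of doses within a gene. Of the summed FPKM of the 5 genes, TALDO1 made up 43.9% at 0 Gy and 40.9% at 10 Gy, and IDH1 4.28% and 4.91%.

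The scaling to library depth moved the size of these changes. Under 5 other scalings (upper quartile, median of ratios, TPM, in which every library has the same sum, and recovered reads fitted with voom at either of 2 depths) the log2 change ranged from -0.39 to -0.26 for TALDO1 and from -0.25 to -0.13 for PGD, the deposited scaling included, and both were called each time. TKT ranged from -0.19 to -0.06 and was not called in TPM (limma, adjusted p = 0.134). ME1 ranged from -0.21 to -0.09 and was called under 1 of the 5 others, voom at the deposited depth, with adjusted p up to 0.246. IDH1 ranged from -0.09 to 0.04, which changed its sign. The IDH1 libraries were at 35.2, 35.7 and 36.0 TPM at 0 Gy and at 36.4, 37.2 and 36.3 TPM at 10 Gy. The median change of all tested genes was 0.08 on that scale, against -0.04 with the deposited scaling. Relative to the median of all genes the changes were -0.35 to -0.33 for TALDO1, -0.21 to -0.20 for PGD and -0.15 to -0.13 for TKT. For ME1 they were -0.17 to -0.15 and for IDH1 -0.04 to -0.03. Each scaling multiplies a whole library by a single factor, which moves all log2 changes nearly alike. Subtracting the median removes that move by construction, so these narrow ranges are not a test of stability.

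**Figure D3:**
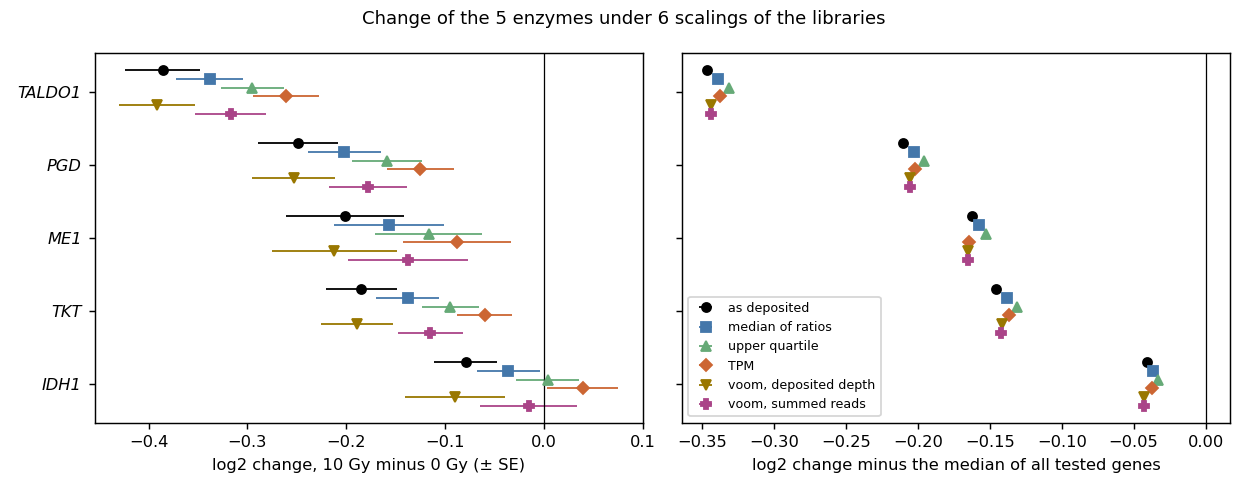
Log2 change from 0 to 10 Gy of each member under the deposited scaling and 5 others, as fitted and relative to the median change of all tested genes. Relative to that median TALDO1 lies between -0.35 and -0.33 and IDH1 between -0.04 and -0.03. Subtracting the median removes the shift of a scaling by construction.

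Ratios of 2 genes within a library do not depend on its scaling, and 4 are given, with p adjusted over 5 and the smallest exact two-sided permutation p for 3 against 3 libraries at 0.1. TKT to TALDO1 was 0.504, 0.514 and 0.507 at 0 Gy and 0.575, 0.577 and 0.603 at 10 Gy, higher in every irradiated library (exact p = 0.1, adjusted 0.167). The difference did not pass the threshold, which this design cannot reach. IDH1 to IDH2, the cytosolic over the mitochondrial enzyme, was 1.56, 1.72 and 1.76 at 0 Gy and 1.24, 1.34 and 1.28 at 10 Gy, lower in every irradiated library (exact p = 0.1, adjusted 0.167). ME1 to the mitochondrial ME2 was 7.56, 7.65 and 7.15 at 0 Gy and 6.15, 6.27 and 7.12 at 10 Gy (exact p = 0.1, adjusted 0.167), with the third libraries again close. PGD to TKT overlapped between the doses, at 1.03, 1.12 and 1.05 against 1.01, 1.00 and 1.04 (exact p = 0.2, adjusted 0.25).

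**Figure D4:**
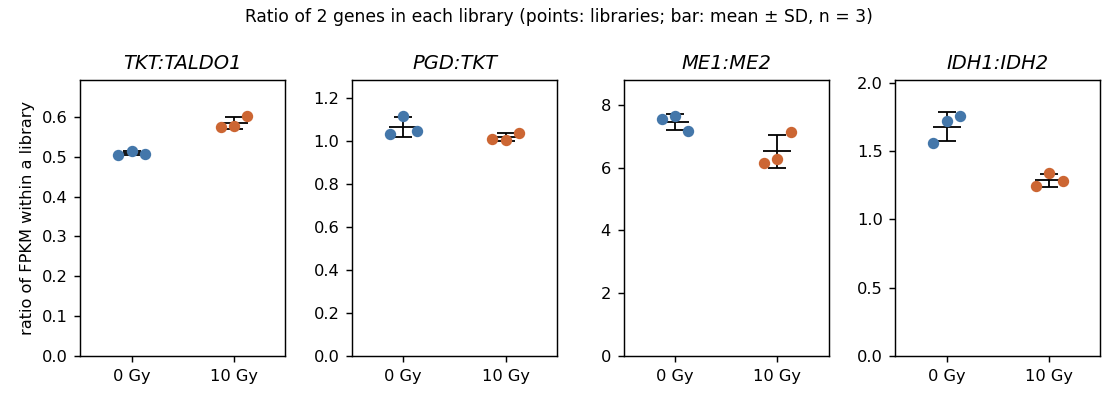
Ratios of FPKM within each library for 4 gene pairs, on linear axes from 0, with a point for each of the 3 libraries per dose and bars at the mean ± 1 SD. TKT to TALDO1 is higher, and ME1 to ME2 and IDH1 to IDH2 are lower, in every 10 Gy library.

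Among the other tested genes of the pentose phosphate pathway given here, RPIA was called lower and none was called higher. Of 11 genes listed 8 were tested, and 4 of these were called lower, the 3 members and RPIA, beside 23.7% of all tested genes. Without the members 1 of 5 tested genes was called lower, beside the same 23.7%, and the median change was -0.06. In TPM 3 of the 8 were called lower, beside 8.79% of all tested genes. RPIA, which makes ribose 5-phosphate from ribulose 5-phosphate, was at 19.8, 18.1 and 18.8 FPKM at 0 Gy and at 11.9, 11.2 and 13.2 FPKM at 10 Gy. That is a log2 change of -0.60 with a standard error of 0.061 (limma, adjusted p = 0.00087), below that of any member. PGLS, the lactonase that acts before PGD, was at a log2 change of -0.09, RPE, the epimerase, at -0.06, RBKS, ribokinase, at 0.10, and H6PD, the enzyme of the endoplasmic reticulum, at 0.03, none of them called. Every RBKS value at 10 Gy lay above every value at 0 Gy, as for 19.1% of tested genes. PGLS and RPE turned slightly above 0 in TPM. SHPK, at 0.542 to 0.793 FPKM, and TKTL1 and TKTL2, with at most 2 reads in any library, were below the level for testing.

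Of the other NADPH makers 14 of 16 listed genes were tested, with 6 called lower and 2 higher, beside 23.7% lower and 11.9% higher of all tested genes, and a median change of -0.13. In TPM 3 were called lower, without ME1, ME3 and MTHFD2, and 2 higher. The list also holds enzymes that do not make NADPH themselves, the NAD kinases NADK and NADK2 and the formate enzyme MTHFD1L, and FDXR, which uses it. The lower genes were ME1, the mitochondrial malic enzyme ME3 (-0.17), glutamate dehydrogenase GLUD1 (-0.21) and the folate enzymes MTHFD1L (-0.49), MTHFD1 (-0.35) and MTHFD2 (-0.24). MTHFD1L, at 15.4 ± 0.318 and 10.7 ± 0.555 FPKM (SD, n = 3), was the lowest of them. The call of ME3 was lost under 9 of 19 alternatives, among them TPM (-0.056, limma, adjusted p = 0.402) and the leaving out of 0 Gy library 1 or 3 or 10 Gy library 2 or 3. IDH2, the mitochondrial partner of IDH1, rose from 5.80 ± 0.417 to 7.10 ± 0.218 FPKM (SD, n = 3), a log2 change of 0.25 (limma, adjusted p = 0.010). NNT, the mitochondrial transhydrogenase, rose by 0.09 (limma, adjusted p = 0.041), a call that was lost when any library was left out. ME2 (-0.01), MTHFD2L (-0.10), FDXR (0.08), NADK (-0.11) and NADK2 (-0.15) were not called, and ME2 and NADK were above 0 in TPM. ALDH1L1 and ALDH1L2 were at 0.129 FPKM or less in every library and were not tested. Leaving out the members, 6 of the remaining 17 tested genes of both lists were called lower and 2 higher, again beside 23.7% and 11.9% of all tested genes.

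**Figure D5:**
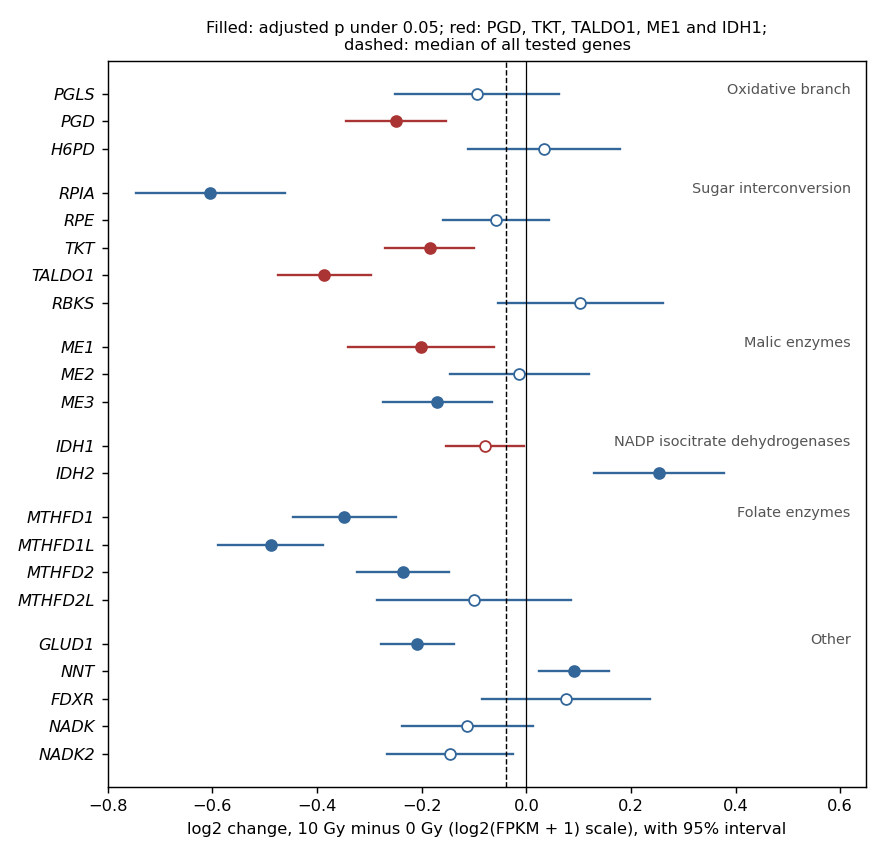
Log2 change from 0 to 10 Gy with 95% intervals for the tested genes of the pentose phosphate pathway and the other NADPH makers. RPIA and MTHFD1L lie lowest, at -0.60 and -0.49, and IDH2 highest, at 0.25.

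Genes on either side of these enzymes were called in both directions, and their counts are read against 23.7% lower and 11.9% higher of all tested genes. Among 19 NADPH users 8 were called lower and 4 higher, with thioredoxin reductase TXNRD1 at -0.56 and glutathione reductase GSR at -0.32, and with fatty acid synthase FASN at 0.35 and the sterol reductase TM7SF2 at 0.36. Without a library the lower count became 3 (10 Gy library 1), 4 (10 Gy library 3) or 5 (10 Gy library 2), and the higher count 1 or 2 except without 10 Gy library 2, where it was 3. The call of TM7SF2 was lost without any library but 0 Gy library 1, and that of FASN was kept. At the glucose 6-phosphate branch point 3 of 12 tested genes were called lower, close to the share of all tested genes, and 2 higher, among them hexokinase HK2 at -0.37 and phosphofructokinase PFKM at -0.22, and PFKFB4 at 0.40 and PFKL at 0.15. PFKL lost its call without 0 Gy library 2 or 3 or 10 Gy library 1 or 2. TIGAR, whose product steers glucose 6-phosphate to this pathway, was at 0.389 to 0.782 FPKM and was not tested. Of 8 genes that use ribose 5-phosphate or its product, 4 were called lower and none higher, with PRPS2 and HPRT1 both at -0.32. The counts moved with the scaling. In TPM, where 8.79% of tested genes were called lower and 25.7% higher, the NADPH users held 3 called lower and 6 higher, the branch point 3 and 5, and the genes after ribose 5-phosphate 2 lower and none higher.

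Of the 13 genes of the list of NRF2 and its targets outside the pathway, 12 were called lower and none higher, beside 23.7% and 11.9% of all tested genes, with a median log2 change of -0.43. In TPM 10 were called lower and 1 higher, beside 8.79% and 25.7%. The 12 called lower as deposited include NFE2L2, the gene of NRF2 itself, at -0.21, and KEAP1, which encodes its repressor, at -0.30. SLC7A11, the cystine transporter, was at -0.69, and FTL, ferritin light chain, whose pseudogenes can share its reads, at -0.66. Cell cycle genes moved with the dose as well, 5 of 8 higher and 2 lower, with AURKA at 0.49, CCNB1 at 0.42, PCNA at -0.48 and MCM2 at -0.34. The summed FPKM of these 8 genes was 684 to 701 at 0 Gy and 757 to 769 at 10 Gy. The part of NRF2, or of the cell cycle genes, in the changes of the members was not tested.

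The protein-coding gene most like each member over the 6 libraries, by root mean square difference of centred log2(FPKM + 1) among 10491 genes, was HAUS1 for PGD (0.0162), PSMA3 for TKT (0.0050), CMC2 for TALDO1 (0.0147), UBE2D1 for ME1 (0.0190) and ENSG00000168385, SEPTIN2 in the reference names, for IDH1 (0.0082). Between members the smallest difference was that of PGD and ME1, at 0.0396, and the largest that of TALDO1 and IDH1, at 0.157.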

How the data were processed

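RNA-sequencing values of 6 libraries of MDA-MB-231 shSCR cells were analysed, 3 at 0 Gy and 3 at 10 Gy, grouped by the treatment in the sample labels. The authors deposited FPKM values from polyA libraries. The submitters' processing notes name HISAT2 and GRCh38, and the counting program is not given in the sources used here. Gene identifiers and lengths are those of GENCODE 29, each length being the union of a gene's exons. FPKM times length gave whole multiples of a step for each library, which gave the reads behind each value, and these reads were used only for depth and as alternatives.

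A linear model of log2(FPKM + 1) on dose was fitted to every gene averaging 1 FPKM or more, using limma 3.58.1 (R 4.3.3) with a moderated variance that follows the level. On this scale the changes of low genes are understated. A call is a Benjamini-Hochberg adjusted p below 0.05, adjusted over all tested genes. Counts at 1.3-fold are given beside them. The procedure was tested on simulated data. Ratios of 2 genes were compared with exact permutation tests. Counting error is that of the reads alone.

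The members and the 7 gene lists were chosen with earlier results of these data known. Named are the members, the tested genes of both enzyme lists, from each other list up to 2 called genes at either end of the changes, and the gene most like each member. The low genes not tested and the markers are given beside them. Other pseudocounts, filters, scalings, fits and left-out libraries were tried as alternatives. Same-numbered libraries of the 2 doses did not deviate together (correlations -0.040, -0.035 and -0.101). A gene of the pathway, and the ratio of the 5 that needs it, is not reported here.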

Additional observations from a re-analysis of the deposited data

How the results depend on the processing

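TALDO1 and PGD were called lower under all 19 alternatives and TKT under 18, and ME1 kept its call under 9. TKT was at -0.060 by TPM. ME1 was not called without the filter on low values (-0.20), with the replicate block (-0.20), by median of ratios (-0.16), by voom on summed reads (-0.14), by upper quartile (-0.12) and by TPM (-0.088). Leaving out single libraries gave -0.28 to -0.23 for PGD, -0.20 to -0.15 for TKT, -0.41 to -0.35 for TALDO1, -0.25 to -0.17 for ME1 and -0.09 to -0.07 for IDH1. IDH1 was above 0 by upper quartile (0.0038) and by TPM (0.040). By TPM, NADK (0.0066), PGLS (0.029), RPE (0.064) and ME2 (0.094) also turned above 0. RPE (0.027) and ME2 (0.045) did so by upper quartile, RPE (0.0095) and ME2 (0.061) by voom on summed reads, and ME2 (0.017) by median of ratios. Without a library H6PD ranged from -0.034 (0 Gy library 3) to 0.078 (0 Gy library 2), and it was above 0 under the other alternatives.

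Of 4317 genes called, 1443 were higher and 2874 lower. The split moved to 2556 higher and 1444 lower by upper quartile, 3113 and 1066 by TPM, 1945 and 2047 by median of ratios and 2795 and 1935 by voom on summed reads. A filter at 5 FPKM gave 874 higher and 2734 lower of 7262 genes, and no filter gave 1815 lower. Leaving out a library gave 2660 to 3993 called, 852 to 1393 higher and 1808 to 2630 lower. At 1.3-fold or more, 700 genes became 1059 with a pseudocount of 0.1, 207 with 5, 408 with the filter at 5 FPKM, 1221 by TPM, 1192 by voom on summed reads, 1156 by voom at the deposited depth, an alternative chosen after seeing the data, and 589 to 781 without a library.

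Of the other NADPH makers, 3 were called lower by TPM and 4 to 5 without a library, and 1 was called higher without the trend, with robust fitting, with protein-coding genes only, with the replicate block and without any library. With the replicate block 3503 genes were called, and PGD, TKT and TALDO1 remained called. The libraries share only a replicate number. The cause of these differences was not tested. Among the 5 enzymes ME1 and IDH1 had the fewest reads, down to 649 and 701 in a library.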
